A study of Macaca mulatta with 7 samples.

Results

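The potassium channel genes examined here are the 91 genes of 18282 in the table of the whole series whose symbol is KCN, further letters and a final number, with 2 genes of that pattern left out by the rule. They cover pore-forming alpha subunits and the accessory subunits that bind them. Potassium channels let potassium leave or enter a cell along its gradient and so set the resting membrane potential. Voltage-gated channels open on depolarisation, calcium- and sodium-activated channels read ions inside the cell, inward rectifiers and tandem pore channels carry resting currents, and accessory subunits tune gating and transport to the membrane. In sperm, a potassium current carried by a channel of the SLO family hyperpolarises the membrane during capacitation, the maturation that precedes fertilisation. KCNU1, a gene of that family, is among the 2 genes left out by the rule. No current was measured here, and whether any member carries it was not tested.

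Total RNA was sequenced from the sperm of rhesus macaques (Macaca mulatta), 1 library for each of 3 Maltreated animals and 4 Control animals, aged 5.67 to 5.92 years. A PureSperm 40/80 density gradient was used on the sperm, and TRIzol to extract the RNA. The labels say nothing of what the maltreatment was, of pooling or of separate collections, so the p-values below measure only the spread between these samples, which may be technical in part. Reads were counted per gene and per exon, sense where they lie on the gene's own strand and antisense where they lie on the other one, and the fraction of exon bases covered was given beside the counts.

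The sense counts of all genes summed to 30715268, 6160996 and 10690315 in Maltreated 1 to 3, against 9847743, 5528056, 6002772 and 5316383 in Control 1 to 4. The 10 sperm and spermatid markers, led by the protamines PRM1 and PRM2, had a count in every library and summed to 41414 to 93801 CPM (the count scaled to the library's sense total and TMM factor, here and below) in Maltreated libraries and 42797 to 58282 CPM in Control libraries. Of the 14 leukocyte markers, 13 were in the table, and they summed to 8.51, 52.7 and 930 CPM in Maltreated 1 to 3, against 6.61, 7.43, 37.9 and 676 CPM in Control 1 to 4. Maltreated 3 and Control 4 stand apart on this list, and 1, 3 and 1 of its 13 genes were at 0 in Maltreated 1 to 3, against 6, 5, 3 and 2 in Control 1 to 4. The summed level of the 9 markers of epithelium and accessory gland stood out in Control 2 alone, at 288 CPM. Of this, 247 CPM was TGM4 and 25.2 CPM was MSMB. KRT8, EPCAM, KLK3 and ACPP were each higher in another library, with KRT8 at 2.17 CPM in Control 2 and 8.57 CPM in Control 4. The 5 neuronal markers summed to 4.18 to 30.5 CPM in Maltreated and 2.22 to 22.4 CPM in Control libraries. The 5 muscle and heart markers summed to 1.00 to 6.397 CPM in Maltreated and 3.63 to 61.1 CPM in Control libraries, highest in Control 4. There MYH6 and MYH7 gave 29.4 and 30.2 CPM of the sum.

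Most members were near the floor of detection. The number with at least 1 sense count was 83, 27 and 53 of 91 in Maltreated 1 to 3, against 36, 40, 35 and 49 in Control 1 to 4. The shares were 91.2%, 29.7% and 58.2% in the Maltreated libraries and 39.6%, 44.0%, 38.5% and 53.8% in the Control libraries, while over all genes they ran from 63.1% in Maltreated 2 to 92.9% in Maltreated 1. The deepest library thus held the most members. Only 9 members had a sense count in all 7 libraries: KCNAB2, KCNH1, KCNH3, KCNH8, KCNK3, KCNMA1, KCNMB4, KCNQ5 and KCNT2 (KCNQ5, an M-current subunit, falls outside the naming rule and was chosen after its values were seen). KCNK17, a tandem pore channel, had none in any, which allows at most 3 counts, or 0.1005 CPM, in Maltreated 1 (floors cover counting error only). Over the 7 libraries 68 members had fewer than 100 counts in total, 74.7% of the list, against 35.6% of all genes. Per kilobase of exon the median member stood at 0.0948 CPM, against 1.24 CPM for the median of all genes.

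The signal lay in few genes. KCNT2, KCNMA1 and KCNK3 together held 62.3% of the members' sense counts over the 7 libraries, and the top 6 members, with KCNH8, KCNH1 and KCNH3 added, held 84.6%. These 6 were the only members with a mean level of at least 10 CPM, and 26 reached 1 CPM. Summed over the list, the members stood at 372, 296 and 291 CPM in Maltreated 1 to 3, against 350.5, 750.5, 416 and 333 CPM in Control 1 to 4, which is 320 ± 45.6 CPM in Maltreated and 463 ± 195 CPM in Control libraries (SD, n = 3 and 4). Control 2 is the highest of the 7, and KCNK3 accounts for most of its sum.

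**Figure D1:**
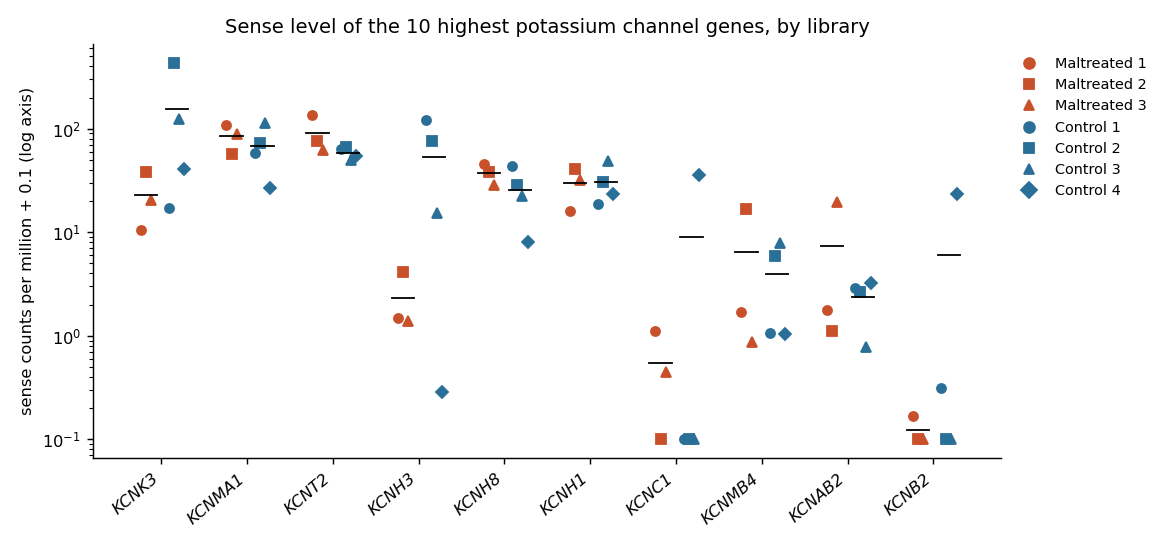
Sense level in CPM of the 10 members with the highest mean level, with 0.1 added and a log axis, in the 3 Maltreated libraries (orange) and the 4 Control libraries (blue); black lines are group means. KCNMA1, KCNT2, KCNH8 and KCNH1 lie in overlapping ranges in both groups, KCNH3 and KCNK3 spread widely over the Control libraries, and KCNC1 and KCNB2 are high in Control 4 alone.

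No member passed the test between Maltreated and Control animals. In edgeR's quasi-likelihood test over 10719 genes with enough counts, 0 genes passed a Benjamini-Hochberg adjusted p of 0.05, a background of 0%, and the smallest adjusted p was 0.999. Of the 91 members 12 had enough counts to be tested, so the other 79 carry no test. Of the 12, 2 (KCNH3 and KCNK3) had an unadjusted p under 0.05, against 191 of the 10719 genes, or 1.78%. The fitted log2 fold change (Maltreated over Control) was above 0 for 7 of the 12 and below 0 for 5, and 48.7% of all tested genes were above 0. The median was 0.45 over the 12 members and -0.02 over all tested genes. It was -0.44 over the 28 members tested with a filter on a mean count of 10, -0.07 without Maltreated 1 and -0.12 without Maltreated 3, so its sign depends on the filter and on single libraries. DESeq2's Wald test called 3 genes and no member. The Maltreated libraries all lay above the Control libraries for 1 of the 12 members, KCNG1, and for 2.10% of all tested genes. They all lay below them for 0 of the 12 and for 1.49% of all tested genes. KCNG1 passed the filter through the Maltreated libraries alone, which fixes both its separation and the sign of its fold change. Its separation is therefore not read against the 2.10%. In RNA from whole sperm preparations, fewer cells of a type and less RNA per cell cannot be told apart.

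**Figure D2:**
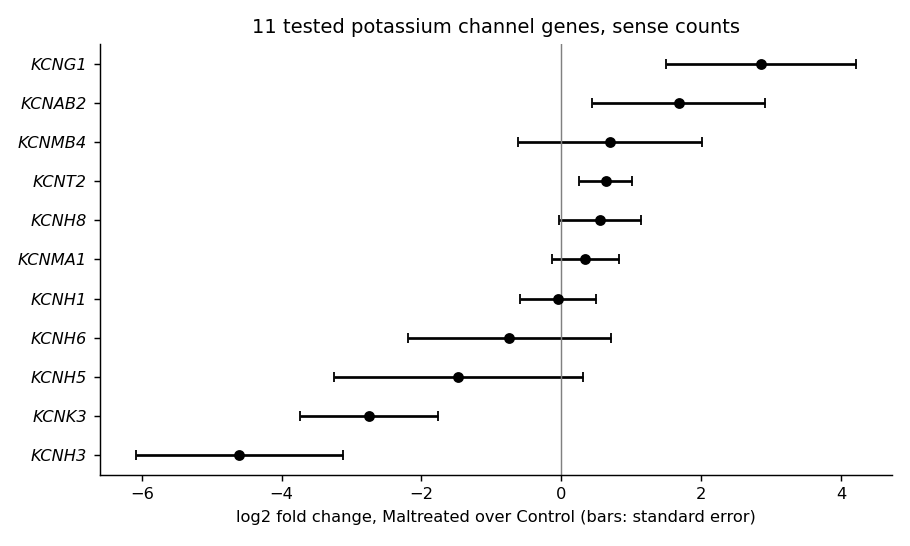
Log2 fold change of sense counts, Maltreated over Control, for 11 of the 12 tested members, with the standard error of the fit as bars. KCNG1 is highest at 2.86, with its sign fixed in advance because it passed the filter through its Maltreated counts alone. KCNH3 is lowest at -4.61. None shown passed the adjusted threshold.

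The calcium- and sodium-activated class (7 members) had the highest summed level of the 6 classes in the 3 Maltreated libraries and in Control 3, through the BK channel KCNMA1 and the sodium-activated channel KCNT2, both of the SLO family. The class summed to 179.9 ± 63.2 CPM in Maltreated and 128 ± 32.3 CPM in Control libraries (SD, n = 3 and 4). KCNMA1, which opens on voltage and calcium together, lies on chromosome 10 from 56300586 to 57047379 on the minus strand (coordinates of the deposited files). It had 109.5, 57.2 and 89.7 CPM in Maltreated 1 to 3, against 58.4, 72.0, 112 and 26.8 CPM in Control 1 to 4. Both groups overlap, with Control 4 lowest and Control 3 highest. The means were 85.5 ± 26.4 CPM in Maltreated and 67.3 ± 35.4 CPM in Control libraries (SD, n = 3 and 4), and the log2 fold change was 0.34 ± 0.48 (SE; edgeR unadjusted p = 0.490, adjusted p = 0.999).

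KCNMA1 counts lay on many exons, and sense reads covered 98.2%, 15.6% and 49.9% of its exon bases in Maltreated 1 to 3, against 43.1%, 40.4%, 31.5% and 9.57% in Control 1 to 4. All 27 exons had a count in at least 1 library, and 0% of the gene's counts fell in runs of equal counts on neighbouring exons. Exons 10 to 22, which make up 24.7% of the exon bases, held 81.7%, 57.0% and 75.7% of the counts in Maltreated 1 to 3, against 78.8%, 74.6%, 80.7% and 11.1% in Control 1 to 4 (this stretch was chosen after the profiles were seen). Control 4 thus departed from the other libraries: most of its 144 counts lay on exon 24, with 91, and exon 27, with 35. Over the 27 exons the rank correlation of counts between 2 libraries had a median of 0.54 over 21 pairs and a range of -0.13 to 0.89, as a description, since the exons share their lengths and base composition.

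KCNT2, whose channel opens with sodium inside the cell, lies on chromosome 1 from 169780405 to 170180098 on the plus strand. Its level was 135, 75.8 and 62.0 CPM in Maltreated 1 to 3, against 63.7, 66.3, 49.5 and 54.6 CPM in Control 1 to 4. Maltreated 1 is highest and Maltreated 3 lies inside the Control range. The means were 90.8 ± 38.6 CPM in Maltreated and 58.5 ± 7.83 CPM in Control libraries (SD, n = 3 and 4), with a log2 fold change of 0.63 ± 0.38 (SE; edgeR unadjusted p = 0.124, adjusted p = 0.999). Without Maltreated 1 the log2 fold change was 0.23.

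Sense reads covered 95.3%, 17.2% and 89.5% of the exon bases of KCNT2 in Maltreated 1 to 3, against 24.1%, 68.9%, 13.3% and 7.31% in Control 1 to 4, so a level of similar size went with very different coverage. Few counts went with much of the covered length. Exon 28, of 2488 bases, was fully covered with 17 counts in Maltreated 1, 4 in Maltreated 3 and 3 in Control 2. Exons 15 to 20 were fully covered with 4 counts each in Maltreated 3. Runs of equal counts held 3.36% of the KCNT2 counts in Maltreated 3 and 2.46% in Control 2. Most KCNT2 counts lay on 2 stretches of its 28 exons, noticed in the profiles. Exons 9 to 13, with 11.2% of the exon bases, held 76.7%, 86.3% and 64.1% of its counts in Maltreated 1 to 3, against 72.5%, 70.5%, 74.5% and 53.2% in Control 1 to 4. Exons 21 to 26 held 19.7%, 13.5% and 27.3% in the Maltreated libraries and 25.1%, 27.9%, 12.1% and 46.1% in the Control libraries. Exon 1 had no count in any library, and exons 15 to 20 had at most 7 counts each in any library and 0 in 5 of the libraries. The 2 stretches were seen in both groups. The rank correlation of exon counts between libraries had a median of 0.82 over 21 pairs (0.37 to 0.94). KCNT1, the other sodium-activated subunit, had only 15 sense counts in all.

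**Figure D3:**
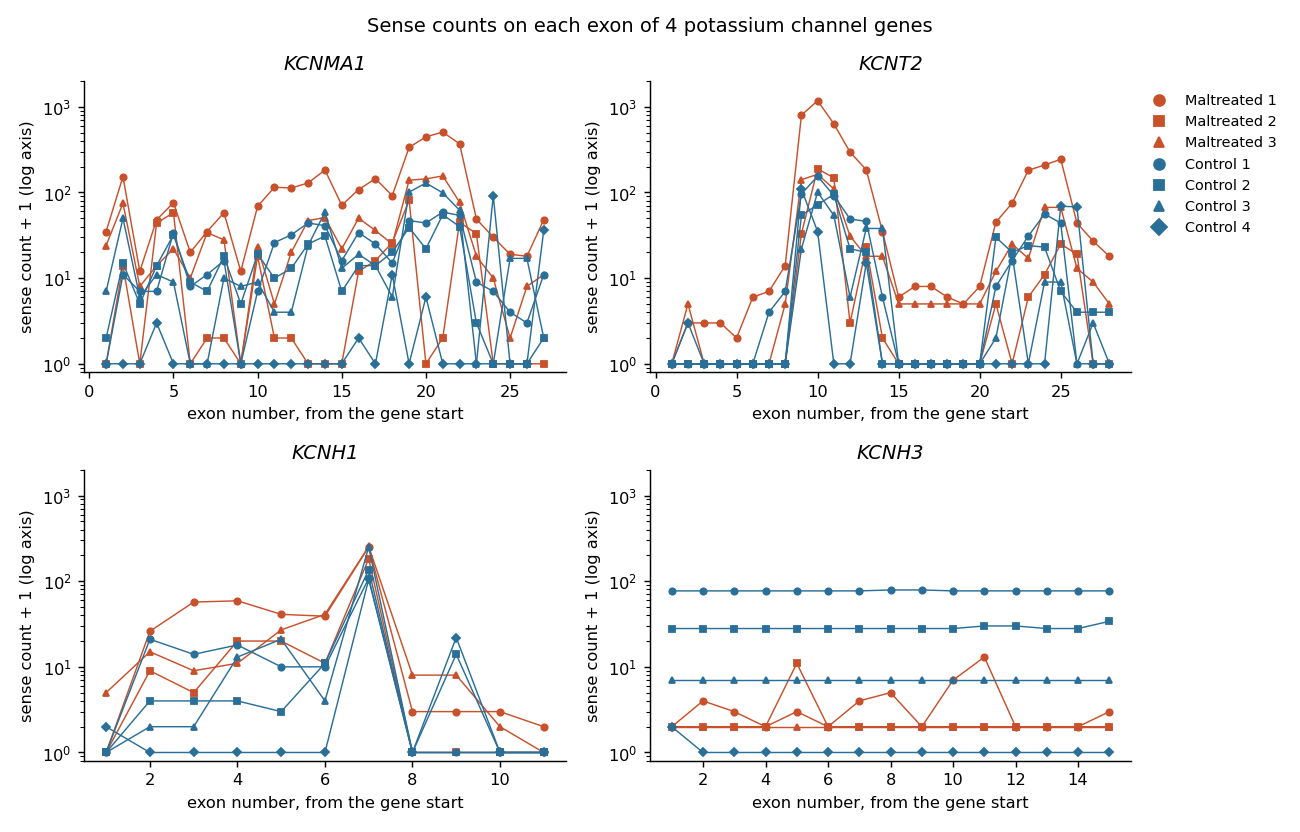
Sense count plus 1 on a log axis for each exon, numbered from the start of the gene, of KCNMA1, KCNT2, KCNH1 and KCNH3, with 1 line per library (Maltreated orange, Control blue). KCNT2 has 2 stretches of high exons, KCNH1 has its peak on exon 7 in all 7 libraries, and KCNH3 is nearly flat in the first 3 Control libraries, at 76 to 78 counts in Control 1, 27 to 33 in Control 2 and 6 in Control 3.

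The KCNQ and EAG class (11 members) had the most tested members, 6, and summed to 80.9 ± 5.63 CPM in Maltreated and 123 ± 57.1 CPM in Control libraries (SD, n = 3 and 4). KCNH1, the founding EAG channel, lies on chromosome 1 from 154902167 to 155353790 on the plus strand. It had 15.9, 40.5 and 32.1 CPM in Maltreated 1 to 3, against 18.7, 30.6, 49.0 and 23.5 CPM in Control 1 to 4. The ranges overlap, with Maltreated 1 lowest and Control 3 highest. Its log2 fold change was -0.05 ± 0.55 (SE; edgeR adjusted p = 0.999). Exon 7 of 11, of 429 bases, held 52.7%, 75.2% and 68.4% of its counts in Maltreated 1 to 3, against 61.1%, 79.9%, 87.1% and 82.5% in Control 1 to 4. In numbers, exon 7 had 250, 182 and 253 counts in the Maltreated libraries and 107, 135, 250 and 104 in the Control libraries. Sense reads covered all 429 of its bases in the 3 Maltreated libraries and in Control 1 and 2, against 394 in Control 3 and 194 in Control 4. The exons after it held at most 21 counts each in any library.

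KCNH8, an ELK-type relative, lies on chromosome 3 from 25900978 to 26282249 on the plus strand. Its level was 45.4, 38.5 and 28.3 CPM in Maltreated 1 to 3, against 43.6, 28.3, 22.2 and 8.01 CPM in Control 1 to 4. Maltreated 1 is the highest, the other Maltreated libraries lie inside the Control range, and Control 4 is the lowest. A log2 fold change of 0.55 ± 0.59 (SE; edgeR unadjusted p = 0.371, adjusted p = 0.999) was fitted. Exon 2 of 16 (233 bases) was the top exon in all 7 libraries, with 678, 103 and 162 counts in Maltreated 1 to 3, against 172, 80, 75 and 43 in Control 1 to 4. In Control 4 all its counts lay there, on 19 covered bases, while in the other 6 libraries all 233 bases were covered.

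KCNH3, another ELK-type channel best known from the forebrain, had the largest fitted difference of the list. On chromosome 12 from 47740287 to 47759561 on the plus strand, it had 1.37, 4.01 and 1.30 CPM in Maltreated 1 to 3, against 122, 75.2, 15.4 and 0.186 CPM in Control 1 to 4. Control 1 and 2 are high, and Control 4 lies below all Maltreated libraries. Its fitted log2 fold change was -4.61 ± 1.48 (SE; edgeR unadjusted p = 0.0105, adjusted p = 0.999), and it was -3.78 without Control 1, -4.39 without Control 2 and -5.06 without Control 4.

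In 5 libraries the exon counts of KCNH3 were the same number on most exons. They were 1 on 14 exons and 10 on exon 5 in Maltreated 2, and 1 on all 15 in Maltreated 3. In Control 1 they were 76 on 13 of the 15 exons and 78 on the other two, in Control 2 they were 27 on 12 exons and at most 33 on the rest, and in Control 3 they were 6 on all 15. Maltreated 1 differed, with 1 to 12 counts per exon, 7 exons at 1 and 7.32% of its counts in runs, and Control 4 had a single count, on exon 1. The deposited coverage was 100% in all libraries but Control 4. Runs of equal counts held 79.8% of the gene's sense counts. When only the part of each exon's count that exceeds the smaller neighbouring exon was kept, 2.89% was left, too little for a test of the gene. A read that overlaps all 15 exons enters the gene's count 15 times.

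The same numbers continued outside KCNH3. On the plus strand the lowest count among the 12 exons of the upstream gene SPATS2 within 100000 bases was 76, 27 and 6 in Control 1 to 3, the commonest KCNH3 number in each. Downstream, all 16 exons of MCRS1, a gene of the opposite strand, had plus-strand counts of 76, 27 and 6 in Control 1 to 3, and the lowest plus-strand count of the 7 exons of FAM186B was again 76, 27 and 6. Equal counts across exons and across genes of both strands are the pattern that reads spanning the locus give, though the files do not say whether a read was counted over its whole alignment.

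KCNH6, an ERG-type channel on chromosome 17, was alike at a lower level. It had 4.59, 0 and 2.52 CPM in Maltreated 1 to 3, against 1.60, 1.45, 10.2 and 2.79 CPM in Control 1 to 4. Control 3 is the highest, with 4 counts on each of the 15 exons. Runs held 87.9% of its counts. The log2 fold change was -0.74 ± 1.45 (SE; edgeR unadjusted p = 0.620, adjusted p = 0.999), and it was 0.30 without Control 3. KCNH5, an EAG-type channel, had 1.71, 0 and 1.65 CPM in Maltreated 1 to 3, against 0.427, 3.81, 0 and 8.57 CPM in Control 1 to 4, and a log2 fold change of -1.47 ± 1.78 (SE; edgeR unadjusted p = 0.427, adjusted p = 0.999). Its highest exon count in Control 4, 37, lay on exon 4 with 53 bases covered. With age as a covariate its log2 fold change was 1.38, with the sign turned.

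**Figure D4:**
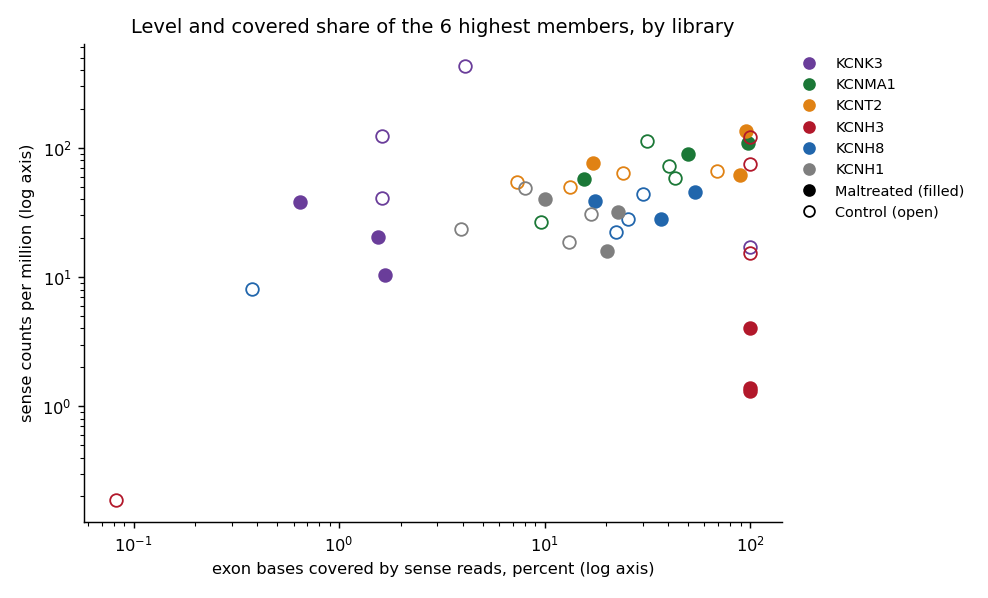
Sense level in CPM against the percent of exon bases covered by sense reads as deposited, both on log axes, for the 6 highest members in the 3 Maltreated libraries (filled) and 4 Control libraries (open). KCNK3 sits at 0.642% to 4.08% in all libraries but Control 1, and KCNH3 at 100% in all but Control 4, while KCNMA1, KCNT2, KCNH8 and KCNH1 lie between them in most libraries; in Control 4 KCNH8 is at 0.376% and KCNH1 at 3.93%.

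Among the 15 tandem pore channels 1 was tested, KCNK3, an acid-sensitive leak channel that holds cells near their resting potential. It lies on chromosome 2a from 26998283 to 27039466 on the plus strand. Its level was 10.4, 38.1 and 20.3 CPM in Maltreated 1 to 3, against 17.2, 433, 124 and 41.2 CPM in Control 1 to 4. The groups overlap at Control 1, and Control 2 is far above the rest. The means were 22.9 ± 14.1 CPM in Maltreated and 154 ± 191 CPM in Control libraries (SD, n = 3 and 4), with a log2 fold change of -2.75 ± 0.99 (SE; edgeR unadjusted p = 0.0190, adjusted p = 0.999). Without Control 2 the log2 fold change was -1.40 (edgeR unadjusted p = 0.106).

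Nearly all KCNK3 counts lay on a short stretch. Exon 1 of its 2 exons, of 340 bases, held 99.5% of the counts, with 306, 228 and 232 in Maltreated 1 to 3, against 160, 2374, 723 and 219 in Control 1 to 4. Sense reads covered 27, 25 and 25 of these 340 bases in the Maltreated libraries, and 35, 26 and 25 in Control 2 to 4. In Control 1 all 340 bases were covered, as were all 3555 of exon 2, where that library had 1 count. Exon 2, which is 3555 bases long, had at most 13 counts in any library. In 6 of the 7 libraries the level thus rests on exon 1 counts over 25 to 35 bases; the files give how many bases were covered, not which. Control 2 was also the library with the highest summed level of the epithelium and accessory gland markers, at 288 CPM. Of this, 247 CPM was TGM4. The part of these markers in the KCNK3 level was not tested.

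Of the 27 voltage-gated alpha subunits 1 was tested, KCNG1, a silent subunit that forms channels only together with other alpha subunits. It lies on chromosome 15 from 13374149 to 13393614 on the plus strand. KCNG1 had 83, 10 and 19 sense counts in Maltreated 1 to 3, against 2, 2, 3 and 0 in Control 1 to 4, which are 2.78, 1.67 and 1.65 CPM in Maltreated and 0.213, 0.362, 0.512 and 0 CPM in Control libraries. All 3 Maltreated libraries lie above all 4 Control libraries. This and the sign of the fold change are fixed in advance, since KCNG1 passed the filter through its Maltreated counts alone. Its log2 fold change was 2.86 ± 1.36 (SE; edgeR unadjusted p = 0.0617, adjusted p = 0.999). The counts lay on exon 3 of 3, with 80, 10 and 19 counts over 702, 255 and 269 of its 1136 bases in the Maltreated libraries, and 2, 2, 3 and 0 counts in the Control libraries. The Control counts are at or under the 3 counts that a count of 0 allows.

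The voltage-gated class summed to 11.6 ± 3.56 CPM in Maltreated and 38.3 ± 56.3 CPM in Control libraries (SD, n = 3 and 4), with 122.6 CPM in Control 4. Over the 91 members of the list, the highest sense level was in Control 4 for 25 (27.5%), against 23.7% of all genes. It was in Maltreated 1, the deepest library, for another 25 (27.5%), against 12.1% of all genes. A member with counts in that library alone is highest there even at a trace. KCNA5, chosen after its values were seen, was so with 1 count (0.0335 CPM). The part of depth in this number was not tested. Several members of the class were high in Control 4 only. KCNC1, a fast delayed rectifier of firing neurons, had 1.00, 0 and 0.347 CPM in Maltreated 1 to 3, against 0, 0, 0 and 35.4 CPM in Control 1 to 4. KCNB2, a delayed rectifier, had 0.0670, 0 and 0 CPM in Maltreated 1 to 3, against 0.213, 0, 0 and 23.3 CPM in Control 1 to 4. KCNS3, a silent subunit, had 0.134, 0 and 0 CPM in Maltreated 1 to 3, against 0, 0, 0 and 20.7 CPM in Control 1 to 4. In each the Control 4 counts lay on few bases: 118 counts of KCNC1 covered 195 of the 6180 bases of its exon 3 (its exons 2 and 3 overlap, so a read there can be counted on both), 115 of KCNB2 covered 101 of 2404 bases, and 110 of KCNS3 covered 12 of 2010 bases. KCND2 and KCNA3, chosen after their values were seen, likewise had 18.4 and 17.3 CPM in Control 4 and at most 1.09 CPM in any other library. Control 4 also had 676 CPM of leukocyte markers, of which 497 CPM was CD74. Its muscle and heart markers summed to 61.1 CPM, of which MYH6 and MYH7 gave 29.4 and 30.2 CPM. TNNT2 was at 0 there, and ACTN2 and DES were lower than in the other Control libraries. Its neuronal markers summed to 22.4 CPM, of which 19.7 CPM was SYT1, and the neuronal sum was 30.5 CPM in Maltreated 1. The part of these markers in the channel levels was not tested.

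Accessory subunits (15 members) had 2 tested members and summed to 19.8 ± 8.18 CPM in Maltreated and 12.1 ± 3.24 CPM in Control libraries (SD, n = 3 and 4). KCNAB2, a cytoplasmic beta subunit with an oxidoreductase fold, had 1.67, 1.00 and 19.4 CPM in Maltreated 1 to 3, against 2.77, 2.54, 0.683 and 3.17 CPM in Control 1 to 4. Maltreated 3 alone is high, and the other libraries overlap. Its fitted log2 fold change was 1.68 ± 1.24 (SE; edgeR unadjusted p = 0.204, adjusted p = 0.999), and it was -0.77 without Maltreated 3. In Maltreated 3 its counts lay on all 15 exons, 90 of them on exon 15 over 1414 of 2710 bases. The same library held 930 CPM of leukocyte markers, whose part in the KCNAB2 level was not tested. KCNMB4, the beta subunit of BK channels best known from neurons, had 1.61, 16.6 and 0.781 CPM in Maltreated 1 to 3, against 0.960, 5.80, 7.86 and 0.932 CPM in Control 1 to 4, with Maltreated 2 highest. Its log2 fold change was 0.69 ± 1.32 (SE; edgeR unadjusted p = 0.610, adjusted p = 0.999).

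None of the 16 inward rectifiers had enough sense counts to be tested, and they summed to 186 counts in all. The highest per kilobase was KCNJ5, a G protein-gated rectifier of the heart, with 0.335, 2.01 and 0 CPM in Maltreated 1 to 3, against 0, 0, 0.512 and 0.559 CPM in Control 1 to 4. In Maltreated 2 all 12 of its counts lay on 4 bases of exon 1. KCNJ12 and KCNJ18 share 2006 exon bases on the same strand, so their counts, 15 and 13 in all, cannot be told apart.

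Antisense counts were a larger part of the members' signal in Control 4 than in any other library. Of the members' counts on both strands 11.3%, 15.2% and 10.2% were antisense in Maltreated 1 to 3, against 10.4%, 11.8%, 9.04% and 49.0% in Control 1 to 4, and over all genes the share was 6.15% to 9.69% in Maltreated and 6.85% to 12.1% in Control libraries. The highest antisense level of 41 of the 91 members was in Control 4, which is 45.1%, against 28.6% of all genes. Over the 7 libraries 30 members had more antisense than sense counts (32.97%), against 17.7% of all genes with a count. In edgeR's test of antisense counts 0 of 4382 genes passed (0% of the background), 9 members were tested, and 0 of the 9 had an unadjusted p under 0.05, against 2.51% of all tested genes. The antisense log2 fold change was above 0 for 1 of the 9 and below 0 for 8, with a median of -0.48, against -0.13 over all tested genes, of which 45.9% were above 0. The split was 3 above and 6 below without Control 2, 3 and 5 without Control 4, and the median was -1.33, -1.26 and -1.08 without Maltreated 1, 2 and 3, with other numbers of members tested. DESeq2's Wald test called 16 antisense genes and no member.

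The inward rectifier with the highest mean antisense level was KCNJ13, a channel of epithelia that lies inside GIGYF2, a gene of the other strand, so its antisense reads lie on the strand of GIGYF2 and cannot be told apart from reads of that gene. Its antisense level was 5.49, 6.02 and 2.86 CPM in Maltreated 1 to 3, against 11.6, 23.9, 5.64 and 4.47 CPM in Control 1 to 4, with Control 2 highest and the ranges overlapping. The antisense log2 fold change was -1.19 ± 1.20 (SE; edgeR unadjusted p = 0.337, adjusted p = 0.998). The same count stood on all 3 exons in Maltreated 2 (12), Control 2 (44) and Control 3 (11). Sense counts of KCNJ13 were 7 in Maltreated 1 and 0 in the other libraries. KCNJ14, another inward rectifier, singled out after its values were seen, also had antisense counts in all 7 libraries, 400 in all against 1 sense count.

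The other named antisense members varied widely between libraries. KCNAB3, a beta subunit, had 2.71, 0 and 0.781 CPM antisense in Maltreated 1 to 3, against 0, 0, 0 and 52.9 CPM in Control 1 to 4, and the Control 4 counts were 20 on 13 of its 14 exons. KCNT1 had 0.335, 0 and 0 CPM antisense in Maltreated 1 to 3, against 0, 10.9, 0 and 37.6 CPM in Control 1 to 4. In Control 2 each of its 33 exons was fully covered with 1 antisense count, and 100% of these counts fell in runs. A read that overlaps all 33 exons is counted on each, and again on repeated exon entries. In Control 4 the KCNT1 counts were 101 on each of exons 32 and 33, which overlap, over 101 bases. Antisense counts of KCNC1 lay mostly on exon 3, in all 7 libraries, with 0.938, 9.70 and 0.955 CPM in Maltreated 1 to 3, against 0.640, 5.98, 4.44 and 11.6 CPM in Control 1 to 4. KCNK10, a mechanosensitive tandem pore channel, had 1.94, 0 and 3.12 CPM antisense in Maltreated 1 to 3, against 1.92, 5.44, 1.02 and 3.35 CPM in Control 1 to 4, with overlapping ranges. KCNH3 had 2.28, 5.02 and 0 CPM antisense in Maltreated 1 to 3, against 3.31, 21.7, 0.171 and 0.559 CPM in Control 1 to 4, and in Control 2 it had 8 antisense counts on every exon.

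**Figure D5:**
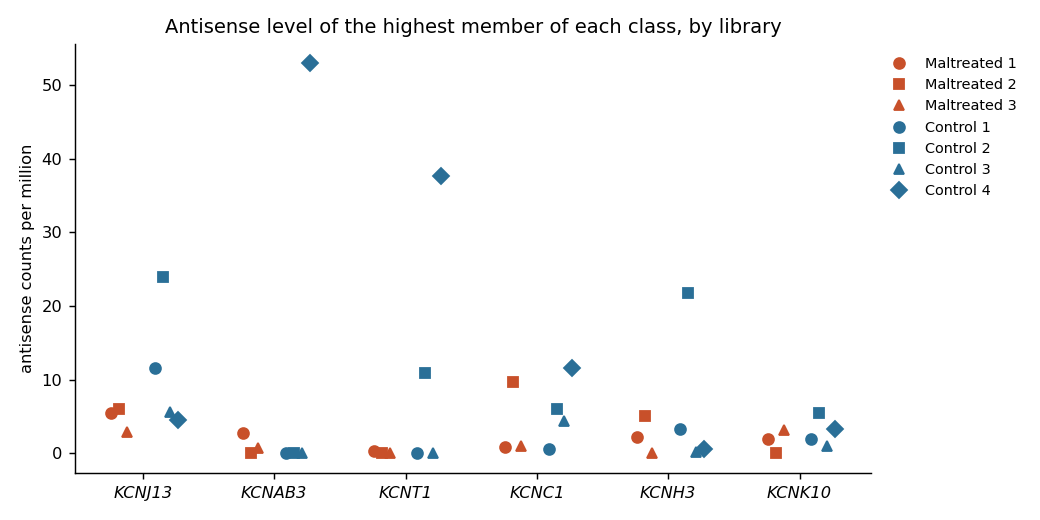
Antisense level in CPM of the member with the highest antisense level in each class, in the 3 Maltreated libraries (orange) and 4 Control libraries (blue). KCNAB3 and KCNT1 are high in Control 4, KCNH3 in Control 2, and KCNJ13 has a level in all 7 libraries.

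Runs of equal counts on neighbouring exons, which reads that span exons would give, were counted over the whole list. In the 64 members with at least 3 exons, runs held 1.95%, 2.51% and 3.37% of the sense counts in Maltreated 1 to 3, against 34.8%, 20.5%, 10.6% and 4.31% in Control 1 to 4. Without KCNH3, a choice made after its values were seen, the shares were 1.93%, 1.59% and 2.88% in Maltreated and 4.11%, 6.15%, 5.30% and 4.31% in Control libraries. Over all genes they were 0.561% to 3.07% in Maltreated and 1.51% to 6.02% in Control libraries. KCNH3 alone held 1380 of the members' 1991 sense counts in runs. On the antisense strand runs held 38.1% of the members' counts and 53.7% of those of all genes over the 7 libraries, so runs were a larger part of the antisense than of the sense counts in both. Low counts that tie also fall in runs.

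Potassium is also moved and held by genes outside the channel list. Of 31 listed pumps, cotransporters, exchangers and channel partners 19 were tested, 0 passed edgeR's adjusted threshold and 0 had an unadjusted p under 0.05. The log2 fold change was above 0 for 12 and below 0 for 7, with a median of 0.20. Over all tested genes 48.7% were above 0, and the median was -0.02. In the same edgeR test 1.78% of all tested genes had an unadjusted p under 0.05. DPP10, a partner of voltage-gated KCND channels, had 0.01 ± 0.31 (SE), and SLC12A2, the sodium-potassium-chloride cotransporter, had 1.22 ± 0.59 (SE; edgeR unadjusted p = 0.0630). ATP1A4, the sperm-specific sodium pump subunit, had -0.76 ± 1.39 (SE; edgeR unadjusted p = 0.596).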

How the data were processed

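Sperm total RNA of 3 Maltreated and 4 Control rhesus macaques was analysed from deposited tables. The tools that the submitters' processing notes name are bedtools, STAR and featureCounts; their versions and roles and the genome build are not given in the sources used here. Per the file headers, the authors deposited raw read counts per gene and strand, and per exon in a file for each library and strand, with no normalisation. The deposited coverage is a fraction of covered exon bases, computed by the authors. Gene counts equalled the sum over exon entries, in which 43085 of 233690 entries repeat an exon, so a read is counted once per exon entry it overlaps. RTN3 and ZC3HAV1, listed on both strands, were left out.

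Counts were scaled with TMM factors and filtered with filterByExpr (minimum count 10). They were tested with edgeR 4.0.16 quasi-likelihood F tests (R 4.3.3) over all genes, Benjamini-Hochberg adjusted, threshold 0.05. The same test was first run on simulated counts, which varied less between libraries than these data. For these data the fitted biological coefficient of variation was 0.858 for sense and 1.37 for antisense counts. The simulation thus does not show how often a change would be found here. Antisense CPM used the sense scaling. DESeq2 1.42.0, other scalings, filters, covariates, a replicate block and leaving out each library were alternatives. A run is at least 3 neighbouring unique exons with an equal count of at least 1. All 91 members are spelled as in the files, and 90 of them are current RefSeq symbols. Exons are numbered along the gene. Named members were the 10 highest by mean CPM, the 4 with the smallest p in each direction, the highest per kilobase and the highest antisense in each class, and those covered over at least 50% in 4 or more libraries; others are named as chosen after their values were seen. Members, lists and rules were chosen with earlier results of these data known. Some members that this rule names are not reported here.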

Additional observations from a re-analysis of the deposited data

Results flagged for a closer look

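Levels of 16 members on the sense strand and 6 on the antisense strand were examined in the 4 Control libraries for a library set far apart from the other three by Dixon's 95% critical value; 6 of these 22 sets of values did so, where chance gives about 1 in 20 for groups not chosen by their values. Several of these members were named for a high level that a single library can make, so the number is not set against that share. The group of 3 Maltreated libraries is too small for this rule.

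In Control 4 the sense level was 35.4 CPM for KCNC1, 23.3 CPM for KCNB2 and 20.7 CPM for KCNS3, and the antisense level was 52.9 CPM for KCNAB3. The KCNAB3 counts were 20 on 13 of its 14 exons. In Control 3 the sense level of KCNH6 was 10.2 CPM, with 4 counts on each of its 15 exons. In Control 2 the antisense level of KCNH3 was 21.7 CPM, with 8 counts on each of its 15 exons. A read that overlaps every exon of a gene enters these levels once per exon. Control 4 thus gave 4 of the 6 values.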

How the results depend on the processing

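No member was called under any of the 18 alternatives for sense counts or the 12 for antisense counts, the fits with a replicate block included (0 sense and 0 antisense members, and 0 genes on either strand). Same-numbered Maltreated and Control libraries had correlations of deviations of 0.07, 0.01 and -0.02, so the numbers were not taken as pairs. Over all genes, sense calls were 3 by DESeq2's Wald test and 1 with age as a covariate, against 0; antisense calls were 16 by DESeq2's Wald test and 24 with no filter, against 0 (these antisense counts over all genes were added after the data were seen). No cause was tested. Of 138 log2 fold changes of 8 members, the 4 with the smallest p in each direction, 132 kept their sign. These members were picked by p in the same libraries that the alternatives reuse, and the filter fixed the sign of KCNG1. The kept signs are therefore no support for a direction. KCNAB2 had -0.029 with sense plus antisense counts and -0.58 without Control 4 and Maltreated 3, and -0.77 to 2.17 when 1 library was left out. KCNH5 had 1.18 with the replicate block and 1.38 with age. KCNH6 had -1.65 to 0.30 when 1 library was left out. KCNG1, KCNH3 and KCNH6 had too few counts above the lower neighbouring exon to be tested, and KCNG1 too few without Control 1, Maltreated 1 or Maltreated 3. The share of the members' sense counts in runs was 8.75%, and 6.88% for counts of at least 5, 8.81% over all exon entries, 8.29% for fully covered exons, 2.91% without KCNH3 and 4.69% to 14.5% when 1 library was left out (the choices of fully covered exons, of KCNH3 and of leaving out libraries here were made after the data were seen). Depth differs between libraries, so a count of 0 bounds the level less tightly in a shallow library. It allows at most 0.1005 CPM in Maltreated 1 and 0.559 CPM in Control 4, for counting error only.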
